A study of Mus musculus with 9 samples.

Results

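A group of 10 genes of the endoplasmic reticulum (ER), its resident chaperones and the unfolded protein response (UPR), were examined in RNA-Seq data of mouse embryonic fibroblasts (MEFs). They were *Hspa5*, *Hsp90b1*, *Xbp1*, *Ern1*, *Atf6*, *Calr*, *Canx*, *Pdia3*, *Pdia4* and *Hyou1*. They were chosen by name, with earlier results of these data known. All 10 of 10 were found among the 15184 genes of the deposited table, and all 10 exceeded 10 normalized counts in every library.

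The study examined the effect of HNRNPK overexpression, using the SAM system, in which an inactive Cas9 and a guide RNA bring transcriptional activators to a chosen gene. Its RNA-Seq experiment comprised 9 libraries of polyA+ RNA, 3 labelled Empty (genotype empty vector), 3 from line SAM1 and 3 from line SAM2. According to the methods, wild-type MEFs were transduced with the lentiviral vectors lentiMPHv2 and lentiSAMv2, the latter carrying guides against *Hnrnpk*, and were selected with blasticidin and hygromycin. The methods name lentiSAMv2 with a nontargeting guide as the control, while the labels say empty vector. MEFs in the study came from embryos at mid-gestation, and selection began some days after transduction. The methods describe a pair of guides against *Hnrnpk*, and the labels do not say which of them each line carries, whether a line is 1 clone, or whether the 3 libraries of a group were grown apart, so p-values measure the spread between these libraries, which may be technical.

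Secretory and membrane proteins fold in the ER. There, BiP (the product of *Hspa5*) and GRP94 (*Hsp90b1*) bind unfolded chains, calreticulin (*Calr*) and calnexin (*Canx*) hold glycoproteins by their sugars, and disulfide isomerases such as *Pdia3* and *Pdia4* form and rearrange disulfide bonds. When unfolded proteins accumulate, the membrane sensors IRE1 (*Ern1*), ATF6 (*Atf6*) and PERK (*Eif2ak3*) start the UPR, in which the transcription factors XBP1 and cleaved ATF6 raise the expression of ER chaperones. Fibroblasts secrete large amounts of collagen and fibronectin and therefore rely on this machinery.

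The recovered depth was 41759636 to 49026626 reads on the listed genes per library. The paper reports HNRNPK overexpression in its SAM MEFs by qRT-PCR, Western blot and immunofluorescence. In these RNA-Seq data, under the authors' size factors, *Hnrnpk*, the targeted gene, was not called higher in either line. Its counts alone thus do not bear out the labels, and other scalings were not examined for this gene. Its mean normalized counts were 25773 in empty vector, 23922 in SAM1 and 26563 in SAM2, with log2 fold changes of -0.11 in SAM1 (limma, adjusted p = 0.00252) and 0.044 in SAM2 (limma, adjusted p = 0.159). The lines are therefore named by their labels, and directions refer to those labels. All 11 fibroblast markers on the list were present, with summed normalized counts of 1036180 to 1127990 in empty vector, 877974 to 934729 in SAM1 and 1159700 to 1198280 in SAM2. Single fibroblast markers moved in different directions. In empty vector, SAM1 and SAM2, *Dcn* averaged 11815, 2713 and 2538, and *Pdgfrb* 6569, 12577 and 9513. Endothelial markers (5 of 5 listed) summed to 428 to 468 in empty vector, 4922 to 5343 in SAM1 and 907 to 977 in SAM2, most of the SAM1 sum coming from *Kdr*. In empty vector, SAM1 and SAM2, *Kdr* averaged 211, 4693 and 536, *Vwf* 117, 339.8 and 270.3, *Pecam1* 12.9, 29.5 and 12.0, *Cdh5* 77.6, 64.7 and 51.2, and *Tek* 35.6, 29.0 and 67.1. Epithelial markers (4 of 6 listed) summed to 2246 to 2427.5, 7209 to 7734 and 2832 to 2918, and *Epcam* was not listed. Most of these sums came from *Krt19* (1938, 3623 and 2624) and *Cldn4* (366, 3691 and 211). Macrophage markers (4 of 6 listed, without *Ptprc* and *Adgre1*) summed to 1487 to 1524, 2513 to 2673 and 1756 to 1775. Muscle markers (1 of 5 listed) summed to at most 245 in any library, and neural markers (3 of 5 listed, without *Sox10* and *Gfap*) to 3130.2 to 3366, 9351 to 9494 and 8769 to 8991. Of these neural markers, *Nes* averaged 1960, 8134 and 7735, *Tubb3* 268, 796 and 569, and *Map2* 1011, 483 and 568. The part of these markers in the results that follow was not tested. In bulk RNA, fewer cells that use a gene and less RNA per cell cannot be told apart.

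Fold changes are differences of mean log2(normalized count + 1), tested with limma across all 15184 genes with two-sided p-values adjusted by the Benjamini-Hochberg method, and a gene was called when its adjusted p was below 0.05. In SAM1, 9 of the 10 genes were called lower than in empty vector and 0 higher, against 36.9% of all genes called lower, 37.3% called higher and 74.3% called in either direction. In SAM2, 7 were called lower and 1 (*Atf6*) higher, against 35.3% of all genes lower, 35.2% higher and 70.5% in either direction. The median log2 fold change of the 10 genes was -0.31 in SAM1 and -0.38 in SAM2, beside 0.0093 and -0.0015 for all genes. Both comparisons use the same 3 empty vector libraries, so they are not independent. These directions are relative to the authors' size factors, and quantile normalization left 5 genes called lower and 3 higher in each line. Scaling to totals left 6 lower and 1 higher in SAM1, and 7 lower and 2 higher in SAM2. The range of the counts alone gave a similar picture. The 3 SAM1 libraries lay below all 3 empty vector libraries for 9 genes, and the 3 SAM2 libraries lay below for 8 and above for 1, while 74.4% and 73.5% of all genes had groups that did not overlap in these comparisons.

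**Figure D1:**
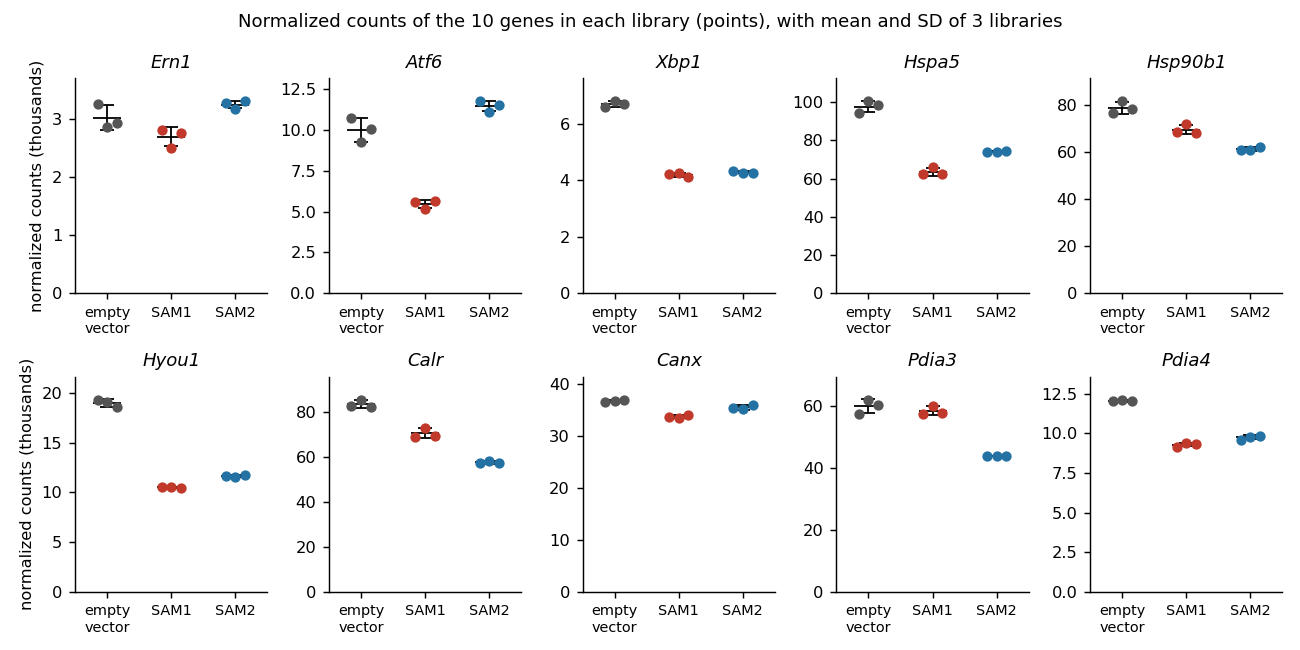
Normalized counts in units of 1000 (vertical axes, starting at 0, a different scale in each panel) of the 10 genes in the 9 libraries, with empty vector in grey, SAM1 in red and SAM2 in blue. Points are libraries, and bars are the mean and SD of 3 libraries. *Xbp1* and *Hyou1* show the 6 SAM libraries well below the 3 empty vector libraries, and *Atf6* is low in SAM1 alone, with 5457 against 9994 in empty vector and 11446 in SAM2.

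When the 6 libraries of both lines were treated as 1 group, 6 genes were called lower (*Hspa5*, *Hsp90b1*, *Xbp1*, *Calr*, *Pdia4* and *Hyou1*) and 0 higher, against 27.0% of all genes lower, 26.8% higher and 53.9% in either direction. The median log2 fold change was -0.34 for the 10 genes and 0.0087 for all genes. This fit counts the difference between the lines as error and did not call *Ern1*, *Atf6*, *Canx* and *Pdia3*. The mean of both lines tested against the spread within lines called 9 genes, *Atf6*, *Canx* and *Pdia3* in addition. Quantile normalization left 3 called lower and 1 higher over both lines, and scaling to totals 4 lower and 0 higher. Together, the 10 genes took 0.834% ± 0.0202 (SD, n = 3 in each group) of all normalized counts in empty vector. In SAM1 the share was 0.741% ± 0.0212, and in SAM2 it was 0.689% ± 0.0031.

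Of the sensors and the transcription factor they act on, *Xbp1* fell in both lines by nearly the same amount, while *Atf6* fell in SAM1 alone and *Ern1* had the smallest values of these 3. *Xbp1* encodes the factor that becomes active when IRE1 excises a short segment from its mRNA. Its normalized counts were 6580.0, 6788 and 6694 in empty vector, 4206, 4264 and 4125 in SAM1, and 4331, 4261 and 4255 in SAM2. Every SAM library lay below every empty vector library, and the lines overlapped each other. The log2 fold change was -0.67 in SAM1 (SE 0.0277, limma adjusted p = 1.08e-10), a decrease of 37.2%, and -0.64 in SAM2 (SE 0.0277, limma adjusted p = 2.58e-10). The difference between the lines was 0.029 (SE 0.0277, limma adjusted p = 0.390), which does not show that they were equal. *Xbp1* kept its direction against empty vector under each scaling tried, with -0.53 and -0.54 in SAM1 and SAM2 when libraries were scaled to their totals. The 20 listed genes nearest to *Xbp1* on its chromosome also had medians below 0, with -0.33 in SAM1 (11 called lower, 4 higher) and -0.28 in SAM2 (13 called lower, 4 higher), against 0.0097 and 0.061 for all listed genes of chromosome 11. The paper describes gained chromosomes and chromosomal abnormalities in its *Hnrnpk* SAM MEFs. The part of copy number and of these neighbours in the result was not tested. The exons of *Xbp1* share 1526 bases with *Ccdc117* on the opposite strand. The strand setting of the counting is not stated, so reads of these genes may be mixed. *Ccdc117*, with a mean of 1389 normalized counts in empty vector, had log2 fold changes of 0.14 in SAM1 and 0.19 in SAM2 (limma, adjusted p = 0.0113 and 0.00134).

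The count of *Xbp1* adds the unspliced and the spliced mRNA. The segment that IRE1 removes is shown here because the table cannot tell the forms apart. It is 26 bases long and lies in a coding exon of *Xbp1* at chr11:5474278-5474303 of GRCm39, on the plus strand, and in GENCODE vM39 it is kept in 13 of 23 coding transcripts and missing as a gap from 1. The capitals mark the segment as annotated, with 2 bases of exon on each side. It starts with G and a G follows it. Removing the 26 bases that start 1 base later would leave the same mRNA, so the annotation does not settle the exact cut.
Xbp1 segment: ccGCAGCACTCAGACTATGTGCACCTCTgc
The level of *Xbp1* mRNA was measured, and its splicing was not.

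*Atf6*, at chr1:170532026-170696208 of GRCm39 on the minus strand, encodes the sensor that is cut in the Golgi to release a transcription factor. It had 10715, 9239 and 10027 normalized counts in empty vector, 5602, 5149.8 and 5619 in SAM1, and 11728, 11114 and 11495 in SAM2. The 3 groups did not overlap, with SAM1 lowest and SAM2 highest. In SAM1 the log2 fold change was -0.87 (SE 0.0497, limma adjusted p = 2.94e-09) and 0.20 in SAM2 (SE 0.0497, limma adjusted p = 0.00303). The difference between the lines, 1.07 (SE 0.0497, limma adjusted p = 1.23e-09), was the largest of the 10 genes in absolute value, with 97.6% of all genes lower on this scale. The 20 listed genes nearest to *Atf6* on its chromosome had a median log2 fold change of -0.11 in SAM1 and -0.27 in SAM2. The proteases that cut ATF6, *Mbtps1* and *Mbtps2*, had log2 differences between SAM2 and SAM1 of 0.36 and 0.64 (limma, adjusted p = 2.24e-07 and 4.30e-09).

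*Ern1*, which encodes the kinase and endoribonuclease IRE1, was the least expressed of the 10 genes, with 3261, 2861 and 2929.9 normalized counts in empty vector, 2814, 2506 and 2761 in SAM1, and 3266, 3173 and 3299 in SAM2. SAM1 lay just below empty vector, and SAM2 overlapped with it. The log2 fold change was -0.16 in SAM1 (SE 0.0525, limma adjusted p = 0.0128), a call that was lost without empty vector replicate 1 (adjusted p = 0.0576) or without SAM1 replicate 2 (adjusted p = 0.0513). Scaling to totals left -0.021 (limma adjusted p = 0.713). In SAM2 the value was 0.11 (SE 0.0525, limma adjusted p = 0.0844). It was called at 0.16 without empty vector replicate 1 (limma adjusted p = 0.00713), at 0.11 without SAM1 replicate 2, which enters through the shared spread (limma adjusted p = 0.0392), and at 0.21 when scaled to totals (limma adjusted p = 0.00189). The difference between the lines was 0.27 (SE 0.0525, limma adjusted p = 0.000625).

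**Figure D2:**
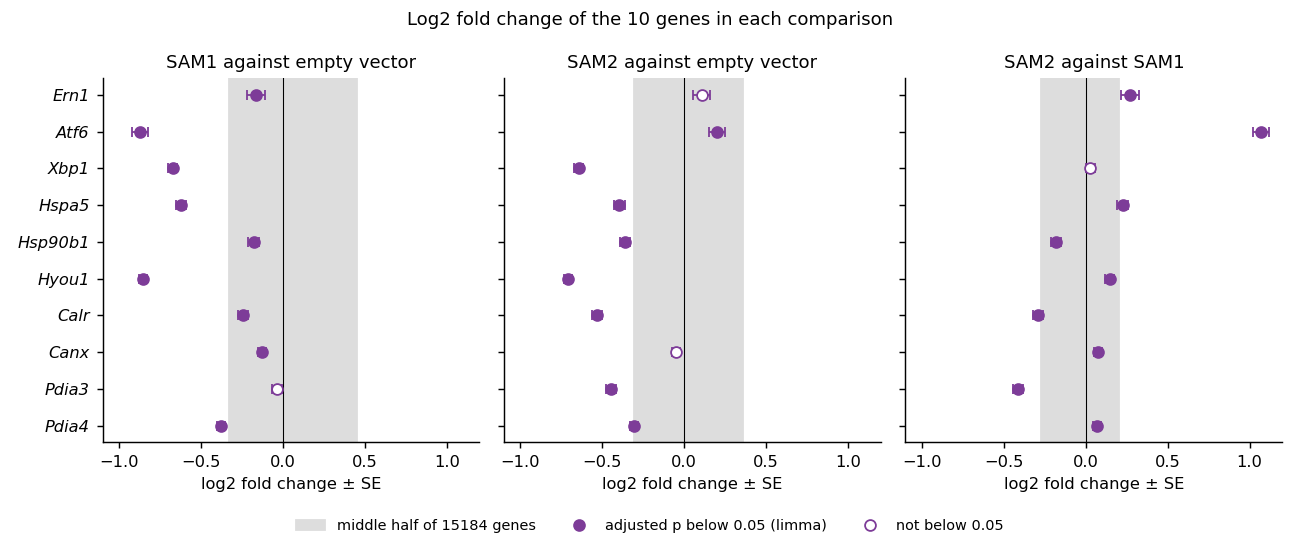
Log2 fold changes (horizontal axes) of the 10 genes (rows) in SAM1 against empty vector, SAM2 against empty vector and SAM2 against SAM1, with bars of 1 SE from the limma fit. Filled points had an adjusted p below 0.05, and the grey band spans the 25th to the 75th percentile of all 15184 genes. Against empty vector, *Hyou1*, *Xbp1* and *Hspa5* lie left of the band in both lines. *Atf6* and *Pdia4* lie left of it in SAM1 and within it in SAM2. *Hsp90b1*, *Calr* and *Pdia3* lie left of it in SAM2 and within it in SAM1.

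Among the HSP70 and HSP90 chaperones, *Hyou1* fell most, *Hspa5* fell in both lines and more in SAM1, and *Hsp90b1* fell more in SAM2. Quantile normalization turned *Hsp90b1* to higher in both lines and *Hspa5* to 0.029 in SAM2. *Hyou1* encodes GRP170, an HSP70 relative that exchanges the nucleotide of BiP. It had 19333, 19135 and 18574 normalized counts in empty vector, 10525, 10573 and 10469 in SAM1, and 11675, 11514 and 11723 in SAM2. The 3 groups were separate and SAM1 was lowest. In SAM1 the log2 fold change was -0.85 (SE 0.0255, limma adjusted p = 4.74e-12), a decrease of 44.6%, and -0.71 in SAM2 (SE 0.0255, limma adjusted p = 4.50e-11), with a difference between the lines of 0.15 (SE 0.0255, limma adjusted p = 0.000286). Scaling to totals left -0.71 and -0.60, and quantile normalization left -0.71 and -0.60.

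*Hspa5*, at chr2:34661982-34668880 of GRCm39 on the plus strand, had 94319, 100348 and 98438 normalized counts in empty vector, 62367, 66015 and 62274 in SAM1, and 74039.8, 73985 and 74692 in SAM2. The groups did not overlap, and SAM2 lay between SAM1 and empty vector. The log2 fold change was -0.62 in SAM1 (SE 0.0321, limma adjusted p = 1.04e-09) and -0.40 in SAM2 (SE 0.0321, limma adjusted p = 1.32e-07), and SAM2 exceeded SAM1 by 0.22 (SE 0.0321, limma adjusted p = 4.96e-05). With quantile normalization these were -0.27 in SAM1 and 0.029 in SAM2. *Hspa5* made up 0.200% of all normalized counts in empty vector, 0.144% in SAM1 and 0.163% in SAM2. Its exons share 2457 bases with *Rabepk* on the opposite strand, and the strand setting of the counting is not stated, so reads of these genes may be mixed. *Rabepk*, with a mean of 960.2 normalized counts in empty vector, had log2 fold changes of 0.16 in SAM1 and 0.40 in SAM2 (limma, adjusted p = 0.00600 and 2.91e-06).

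*Hsp90b1* had 76245, 81296 and 78102 normalized counts in empty vector, 68552, 71574 and 68115 in SAM1, and 60783, 60694 and 61940.3 in SAM2. The groups were separate, with SAM2 lowest, an order opposite to that of *Hspa5*. In SAM1 the log2 fold change was -0.18 (SE 0.0311, limma adjusted p = 0.000168) and -0.36 in SAM2 (SE 0.0311, limma adjusted p = 2.44e-07), with a difference of -0.18 between the lines (SE 0.0311, limma adjusted p = 0.000221). Scaled to totals, SAM1 no longer differed past the threshold (-0.036, limma adjusted p = 0.339), and quantile normalization gave 0.20 in SAM1 and 0.10 in SAM2.

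Some of these genes carry an ER stress response element (ERSE) before their start, a motif read by ATF6 and XBP1 together with NF-Y. It was searched as CCAAT, any 9 bases, then CCACG, on both strands of the 250 bases before the start of each promoter in a RefSeq table of GRCm38.p6. The table held 8 of the 10 genes, without *Atf6* and *Hyou1*. The motif was found in 4 of these 8 (*Hspa5*, *Hsp90b1*, *Calr* and *Canx*) and in 37 of all 32851 promoters (0.113%), while the CCAAT box alone, which each ERSE contains, was in 33.8% of them. The matches are shown on the strand of the gene, 5′ to 3′, with the motif in capitals, and were placed on GRCm39 by exact match of the promoter. The start is that of RefSeq, and in GENCODE vM39 each of the 8 genes starts earlier, inside its window. The match in *Hspa5* and the proximal one in *Hsp90b1* lie within the gene so annotated.
Hspa5 ERSE, chr2:34662037-34662055, plus strand: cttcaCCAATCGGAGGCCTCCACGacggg
Hsp90b1 distal ERSE, chr10:86541502-86541520, minus strand: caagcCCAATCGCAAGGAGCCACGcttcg
Hsp90b1 proximal ERSE, chr10:86541397-86541415, minus strand: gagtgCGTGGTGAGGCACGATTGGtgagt
Calr ERSE, chr8:85573704-85573722, minus strand: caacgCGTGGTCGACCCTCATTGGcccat
Canx ERSE, chr11:50216627-50216645, minus strand: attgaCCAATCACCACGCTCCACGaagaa
The match in *Hspa5* ends 47 bases before the start, and those in *Calr* and the proximal one in *Hsp90b1* run against the gene. A further motif, TGACGTG, read by XBP1 and ATF6, was found in *Hspa5* alone among the 8, and in 1.65% of all promoters. No ERSE was found in these letters in *Xbp1*, *Ern1*, *Pdia3* or *Pdia4*, and a match is not evidence of binding. The 4 genes with a match had log2 fold changes from -0.62 to -0.12 in SAM1 and from -0.53 to -0.050 in SAM2, and the 4 genes without one had values from -0.67 (*Xbp1*) to -0.036 (*Pdia3*) in SAM1 and from -0.64 (*Xbp1*) to 0.11 (*Ern1*) in SAM2.

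Of the lectin chaperones, *Calr* fell in both lines and more in SAM2, and *Canx* was called in SAM1 alone, though quantile normalization turned *Calr* in SAM1 and *Canx* in both lines to higher. *Calr* encodes the soluble calreticulin, which also stores calcium. It had 82812, 85641 and 82522 normalized counts in empty vector, 69168, 73269 and 69568 in SAM1, and 57308, 58445 and 57616 in SAM2. The groups were separate in the order empty vector, SAM1, SAM2. The log2 fold change was -0.24 in SAM1 (SE 0.0298, limma adjusted p = 6.37e-06) and -0.53 in SAM2 (SE 0.0298, limma adjusted p = 3.22e-09), a difference between the lines of -0.29 (SE 0.0298, limma adjusted p = 2.59e-06). Quantile normalization gave 0.12 in SAM1 (limma adjusted p = 0.00389) and -0.13 in SAM2.

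*Canx* encodes calnexin, the membrane-bound partner of calreticulin. It had 36543, 36776 and 36966 normalized counts in empty vector, 33697, 33461 and 34021 in SAM1, and 35403, 35160.5 and 35979 in SAM2. The groups did not overlap, but the steps between them were small. In SAM1 the log2 fold change was -0.12 (SE 0.0240, limma adjusted p = 0.000380) and -0.050 in SAM2 (SE 0.0240, limma adjusted p = 0.0796). The difference between the lines was 0.074 (SE 0.0240, limma adjusted p = 0.0165), and without SAM2 replicate 3 it was 0.065 and not called (limma adjusted p = 0.0760). Scaling to totals turned these to 0.018 and 0.054, so neither direction of *Canx* against empty vector holds under each scaling, while the difference between the lines stayed positive under both other scalings.

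The disulfide isomerases differed from each other. *Pdia3* encodes ERp57, which works on glycoproteins held by calreticulin and calnexin. It had 57557, 61988 and 60313 normalized counts in empty vector, 57529, 60036 and 57791 in SAM1, and 43874, 43884 and 43950.0 in SAM2. SAM1 overlapped with empty vector, and SAM2 lay below both. The log2 fold change was -0.036 in SAM1 (SE 0.0311, limma adjusted p = 0.308) and -0.45 in SAM2 (SE 0.0311, limma adjusted p = 2.76e-08), and the difference between the lines was -0.41 (SE 0.0311, limma adjusted p = 1.26e-07). In SAM1, scaling to totals gave 0.11 (limma adjusted p = 0.0109) and quantile normalization 0.30, while in SAM2 they gave -0.35 and -0.15. The exons of *Pdia3* share 632, 547 and 614 bases with *Catsper2*, *Serinc4* and *Ell3* on the opposite strand. *Catsper2* and *Serinc4* averaged 60.3 and 12.0 normalized counts in empty vector, and *Ell3* was not listed.

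*Pdia4* encodes ERp72, a larger isomerase of the ER lumen. It had 12009, 12114 and 12023 normalized counts in empty vector, 9156, 9377 and 9334 in SAM1, and 9592, 9796 and 9842 in SAM2. Both lines lay below empty vector in every library. In SAM1 the log2 fold change was -0.38 (SE 0.0250, limma adjusted p = 1.45e-08) and -0.31 in SAM2 (SE 0.0250, limma adjusted p = 1.44e-07), and stayed negative under both other scalings. The difference of 0.069 between the lines (SE 0.0250, limma adjusted p = 0.0301) was lost when any of 4 SAM libraries was left out (SAM1 replicates 1 and 3, SAM2 replicates 2 and 3), with adjusted p of at most 0.111. The 20 listed genes nearest to *Pdia4* had a median log2 fold change of 0.33 in SAM1 and 0.48 in SAM2. For the 7 genes other than *Xbp1*, *Atf6* and *Pdia4*, the medians of the 20 nearest genes lay between -0.040 and 0.19 in SAM1 and between -0.098 and 0.17 in SAM2.

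Between the lines, 6 of the 10 genes were called higher in SAM2 than in SAM1 (*Hspa5*, *Ern1*, *Atf6*, *Canx*, *Pdia4* and *Hyou1*) and 3 lower (*Hsp90b1*, *Calr* and *Pdia3*), against 31.1% of all genes higher, 29.2% lower and 60.3% in either direction. The median over the 10 genes was 0.072, beside -0.0075 for all genes. *Hsp90b1*, *Calr* and *Pdia3* were lower in SAM2, *Hspa5*, *Hyou1* and *Atf6* were lower in SAM1, and the sign of these 6 differences between the lines was kept under both other scalings.

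Compared per kilobase of merged exons, *Calr* was the highest of the 10 in empty vector, with 21940.3 ± 452 (SD, n = 3) normalized counts per kb, followed by *Hspa5* with 17591 ± 555, *Hsp90b1* with 12849 ± 418 and *Pdia3* with 12748 ± 476. The last pair did not differ beyond their spread. *Canx* (4829 ± 27.8), *Hyou1* (2300.3 ± 47.7) and *Pdia4* (1679.8 ± 7.96) came next, then *Atf6* (1019.9 ± 75.4) and *Xbp1* (964.8 ± 15.01), which again lay within their spread, and *Ern1* was last with 299.0 ± 21.2. In SAM1, *Hspa5* (11443 ± 384) stood below *Pdia3* (12429 ± 293) and beside *Hsp90b1* (11355 ± 308) within their spread. With the length of the canonical transcript, *Hsp90b1* moved above *Hspa5* and *Xbp1* above *Pdia4* and *Atf6*, so these orders depend on the length used. On this scale *Calr* exceeded 99.8% of 14791 genes and *Ern1* 64.8%.

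Fold changes varied with the level of a gene in empty vector. The same libraries are the reference of both fold changes, so level and fold change are not independent. Genes at low counts in empty vector may also have passed the filter through SAM libraries alone. The share of the trend that comes from this was not tested. The 86 genes above 50000 normalized counts in empty vector had a median log2 fold change of -0.37 in SAM1 and -0.44 in SAM2, and the 893 genes between 10000 and 50000 had -0.19 and -0.15. Set beside these medians, *Calr*, *Hsp90b1* and *Pdia3* lay above the first in SAM1 and *Hspa5* below it (-0.62), and all 4 lay from -0.53 to -0.36 in SAM2. *Hyou1* and *Pdia4*, in the second class, lay below its median in both lines, and *Canx*, the other member of that class among the 10, lay above it in both (-0.12 and -0.050). In the class of 1000 to 10000, which holds 6479 genes with medians of -0.093 and -0.035, *Xbp1* lay far below in both lines, and *Atf6* did so in SAM1. Quantile normalization, which gives all libraries one distribution, moved *Hspa5* in SAM1 from -0.62 to -0.27 but *Xbp1* from -0.67 to -0.56, *Hyou1* from -0.85 to -0.71 and *Atf6* from -0.87 to -0.75.

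**Figure D3:**
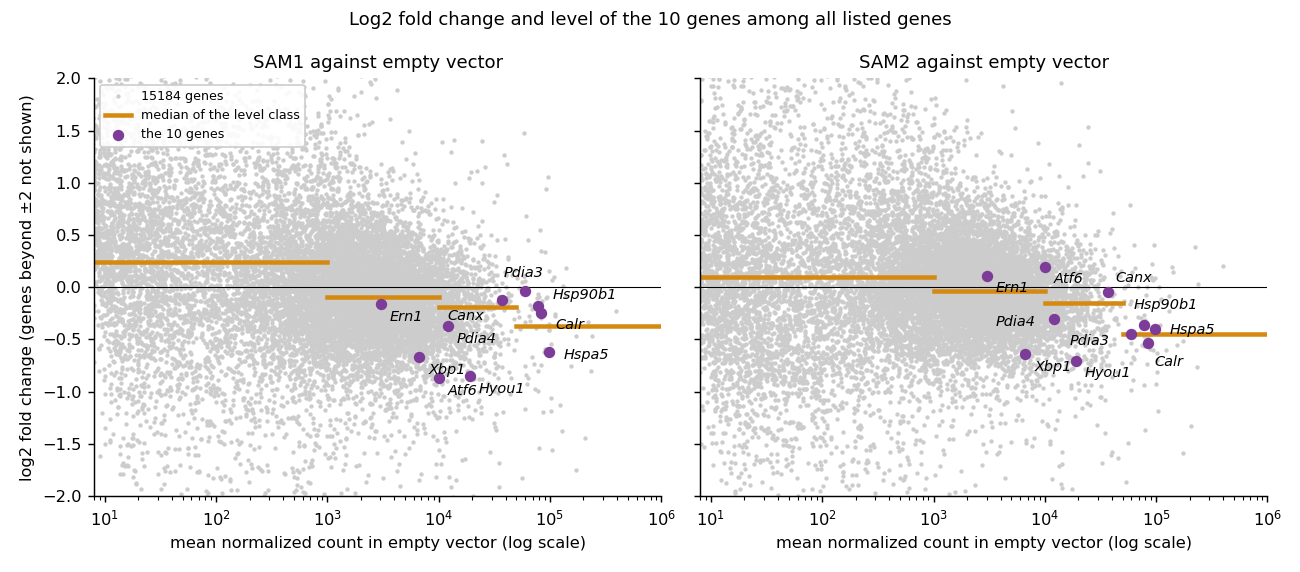
Log2 fold change (vertical axes, cut at -2 and 2) against the mean normalized count in empty vector (log axes) for SAM1 and SAM2. Grey points are all 15184 genes, orange lines the medians of 4 level classes, and purple points the 10 genes. The medians fall from 0.25 to -0.37 in SAM1 and from 0.094 to -0.44 in SAM2 as the level rises. The level in empty vector also enters the fold change, so the axes are not independent. *Xbp1*, *Hyou1* and, in SAM1, *Atf6* lie well below the line of their class.

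**Figure D4:**
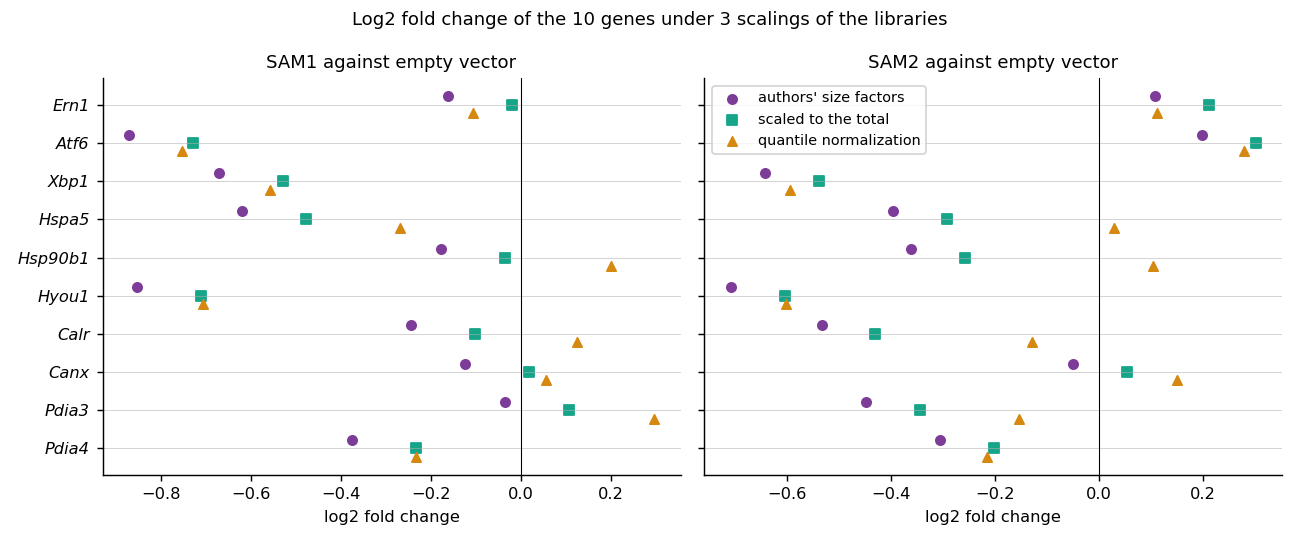
Log2 fold change (horizontal axes) of the 10 genes (rows) in each line under the authors' size factors (circles), scaling to the total of listed genes (squares) and quantile normalization (triangles). *Xbp1*, *Hyou1* and *Pdia4* stay left of 0 in both lines under all 3. *Hsp90b1* and *Canx* cross 0 in both lines under at least 1 of the other scalings. *Pdia3* and *Calr* do so in SAM1 alone, and *Hspa5* in SAM2 alone.

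Beyond the 10 genes, 96 of 98 other ER genes on 6 lists were in the table, without *Derl3* and *Hm13*. In SAM1, 70 were called lower and 16 higher, beside 36.9% and 37.3% of all genes, with a median log2 fold change of -0.25 beside 0.0093 for all genes. In SAM2, 50 were called lower and 29 higher, beside 35.3% and 35.2% of all genes, with a median of -0.11 beside -0.0015, which scaling to totals moved to -0.0035 with 38 lower and 37 higher. Both comparisons share the empty vector libraries. Most of these genes averaged over 1000 normalized counts in empty vector, where the medians of all genes were lower. They were -0.093 in SAM1 and -0.035 in SAM2 for 1000 to 10000, and -0.19 and -0.15 for 10000 to 50000. For genes up to 1000 they were 0.25 and 0.094. The part of level in the counts of these lists was not tested. Between the lines, 58 were higher in SAM2 and 17 lower, beside 31.1% and 29.2% of all genes.

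The co-chaperones and exchange factors of BiP (12 of 12 listed) had 9 genes lower and 3 higher in SAM1, and 7 lower and 2 higher in SAM2. The shares of all genes were 36.9% lower and 37.3% higher in SAM1, and 35.3% and 35.2% in SAM2. Scaling to totals gave 7 lower and 3 higher in SAM1, and 6 lower and 4 higher in SAM2. *Sdf2l1*, a cofactor of ER HSP40 proteins, had 3146, 3547 and 3327 normalized counts in empty vector, 1437, 1576 and 1453 in SAM1, and 1359, 1286 and 1314 in SAM2. All 6 SAM libraries lay below the lowest empty vector value, and the log2 fold change over both lines was -1.25 (limma, adjusted p = 6.95e-07). *Dnajc3*, the co-chaperone P58IPK, moved the other way, from 6145, 5709 and 5915 to 7522, 7372 and 7373 in SAM1 and 7937, 7957 and 7930.4 in SAM2, a log2 fold change of 0.37 (limma, adjusted p = 6.59e-05). It too has an ERSE before its start, as do *Pdia6*, *Creld2*, *Ero1b* and *Syvn1* of the other lists. *Pdia6* had -0.72 in SAM1 and -1.12 in SAM2, and *Creld2*, *Ero1b* and *Syvn1*, at -0.19, -0.22 and -0.21 in SAM1 and -0.37, -1.002 and -0.11 in SAM2, were also called lower, while 1 of the 6 genes of these lists that have the motif, *Derl3*, was not listed.

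Of 19 other disulfide isomerases and oxidoreductases, 15 were lower and 2 higher in SAM1, and 14 lower and 1 higher in SAM2. *Txndc15* (0.094) and *Prdx4* (0.26) were those higher in SAM1. *Ero1a* was the one higher in SAM2, with a log2 fold change of 1.05 there and -0.49 in SAM1. The shares of all genes were 36.9% lower and 37.3% higher in SAM1, and 35.3% and 35.2% in SAM2. Scaling to totals gave 10 lower and 4 higher in SAM1, and 12 lower and 2 higher in SAM2. *P4hb*, the most studied disulfide isomerase and a subunit of the collagen prolyl hydroxylases, had 86262, 91689 and 88159 normalized counts in empty vector, 56723, 58661 and 57255 in SAM1, and 58832, 58779.7 and 58734 in SAM2. Both groups of SAM libraries lay below empty vector, with a log2 fold change of -0.61 over both lines (limma, adjusted p = 1.94e-06) that quantile normalization reduced to -0.21. Of 19 collagen folding genes, 14 were lower and 3 higher in SAM1, and 9 lower and 6 higher in SAM2, beside the same shares of all genes. Scaling to totals gave 10 lower and 5 higher in SAM1, and 8 lower and 7 higher in SAM2. *P3h4* fell by 0.56 on the log2 scale over both lines (limma, adjusted p = 1.14e-06), and *P4ha2*, a catalytic subunit of prolyl hydroxylase, rose by 0.82 (limma, adjusted p = 2.26e-05).

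In the N-glycan folding cycle (13 of 13 listed), 8 genes were lower and 2 higher in SAM1, and 5 lower and 4 higher in SAM2, where the shares are near those of all genes (35.3% lower and 35.2% higher). Scaling to totals gave 3 lower and 6 higher in SAM2, with a median of 0.076. The glycoprotein glucosyltransferases that return unfolded glycoproteins to calnexin and calreticulin moved apart. *Uggt1* fell from 13899 ± 568 (SD, n = 3) to 8201 ± 289 in SAM1 and 9556 ± 279 in SAM2, a log2 fold change of -0.65 over both lines (limma, adjusted p = 6.57e-05). *Uggt2*, at a lower count, rose from 908 ± 41.1 (SD, n = 3) to 1244 ± 77.7 and 1779.9 ± 82.1, a log2 fold change of 0.71 (limma, adjusted p = 0.00376). In ER-associated degradation (17 of 19 listed), 13 genes were lower and 2 higher in SAM1, and 10 lower and 6 higher in SAM2. Among all genes, 36.9% were lower and 37.3% higher in SAM1, and 35.3% and 35.2% in SAM2. Scaling to totals gave 8 lower and 4 higher in SAM1 and 7 lower and 7 higher in SAM2. Over both lines, *Faf2* was among the lower genes (-0.42, limma adjusted p = 1.17e-05) and *Ubac2* among the higher ones (0.57, limma adjusted p = 1.68e-05).

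The other UPR sensors and signal transducers (16 of 16 listed) had 11 lower and 4 higher in SAM1, and 5 lower and 10 higher in SAM2. In SAM2 against SAM1, 12 were higher and 1 lower. Among all genes, 36.9% were lower and 37.3% higher in SAM1, and 35.3% and 35.2% in SAM2. Between the lines, 31.1% were higher in SAM2 and 29.2% lower. Scaling to totals gave 9 lower and 5 higher in SAM1, and 2 lower and 11 higher in SAM2. *Eif2ak3*, which encodes PERK, had 1926, 1815 and 1905 normalized counts in empty vector, 3231, 3132 and 3092 in SAM1, and 3505, 3226 and 3406 in SAM2. Each SAM library lay above each empty vector library, and the log2 fold change over both lines was 0.79 (limma, adjusted p = 1.25e-06). The mRNA of PERK thus rose in both lines, whereas that of *Atf6* fell in SAM1. The others called higher over both lines were *Creb3l1* (1.24), *Creb3l2* (0.60), *Traf2* (0.37) and *Atf6b* (0.11), and those called lower were *Creb3* (-0.39), *Ppp1r15b* (-0.32), *Ddit3* (-0.30) and *Rtcb* (-0.11, and 0.016 when scaled to totals). *Rtcb* is the ligase that rejoins *Xbp1* mRNA after IRE1 has cut it. Among the targets of ATF4, *Trib3* had log2 fold changes of -0.92 in SAM1 and 0.39 in SAM2, *Atf3* of -1.35 and -0.24, and *Atf4* itself of -0.14 and 0.36 (0.0053 in SAM1 when scaled to totals).

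**Figure D5:**
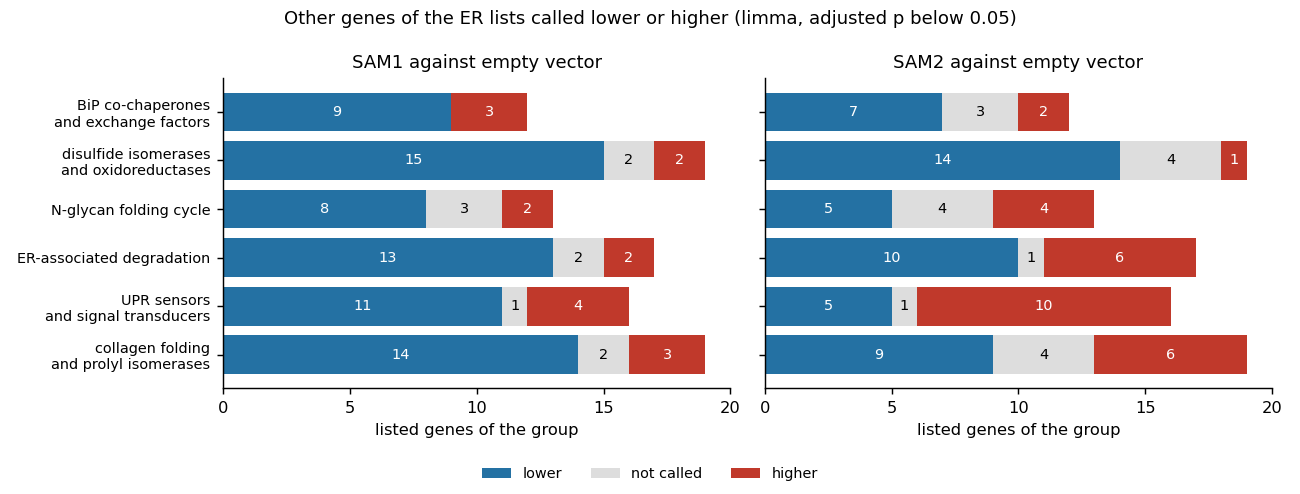
Number of listed genes (horizontal axes) in 6 lists of other ER genes (rows) called lower (blue), called higher (red) or not called (grey) by limma in SAM1 and in SAM2. Lower calls are the larger part of each list in SAM1 with 70 of 96 in all, and the list of UPR sensors and signal transducers turns from 11 lower in SAM1 to 10 higher in SAM2. Among all genes, 36.9% were lower and 37.3% higher in SAM1, and 35.3% and 35.2% in SAM2. Scaling to totals leaves 51 lower and 25 higher in SAM1.

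The genes whose 9 log2 values, each centred on its own mean, lay nearest to those of *Hspa5* among 11331 genes were *Bnip2*, *Clns1a* and *Armc10*, at root mean square distances of 0.0213, 0.0247 and 0.0263. Nearest to *Xbp1* were *Maoa*, *Plpp1* and *Glt8d1*, at 0.0205, 0.0217 and 0.0226. The nearest of the 10 genes to *Hspa5* were *Pdia4* (0.105) and *Xbp1* (0.109), and the nearest to *Xbp1* was *Hyou1* (0.0787). With 3 groups of libraries, this distance reads mainly the means of the groups.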

How the data were processed

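The authors checked reads with FastQC (0.11.0), aligned them to GRCm39 with TopHat2 and Bowtie2, counted them with HTSeq on GENCODE vM29, and divided them by DESeq2 size factors. The deposited values are this signal, normalized counts per gene, for genes above 10 in at least 30% of libraries. Their steps gave whole reads for 100% of values in all 9 libraries (tolerance 0.1 reads).

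Groups came from the labels. The test was limma (3.58.1, trend, in R 4.3.3) on log2(normalized count + 1), with 2 or 3 groups. Its fit of 2 groups was checked on simulated counts with few changed genes and known size factors, which does not check the scaling. edgeR (4.0.16) and DESeq2 (1.42.0) on the recovered reads, other pseudocounts, filters and scalings, a replicate block and each library left out were alternatives. Scaling to the total of listed genes and the canonical transcript length were added after seeing the data. Gene positions and lengths are from GENCODE vM39, in which 14791 of 15184 names were found once. A search of GRCm39 with minimap2 (2.31) for copies of at least 200 bases and 90% identity found 1 of *Calr* (1053 bases, 91.6%), 2 of *Hsp90b1* (228 and 208 bases) and 1 of *Hyou1* (242 bases), whose reads the counting may split.

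The 10 genes and the lists were chosen with earlier results of these data known. Genes named from the lists are those with the smallest adjusted p in each direction over both lines. Among the UPR sensors and signal transducers, all genes called over both lines are named. Only some of the genes behind a count of 5 or fewer are named. The nearest genes to *Hspa5* and *Xbp1* were taken from genes with a mean over 100 normalized counts. List genes with an ERSE, *Rabepk*, *Ccdc117*, *Txndc15*, *Prdx4*, *Ero1a*, *Mbtps1*, *Mbtps2*, *Trib3*, *Atf3* and *Atf4* were chosen after their values were seen. So were the single fibroblast and epithelial markers.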

Additional observations from a re-analysis of the deposited data

Results flagged for a closer look

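For 9 of the 10 genes, the difference between the lines passed the test itself (SAM2 minus SAM1 on the log2 scale, limma, Benjamini-Hochberg adjustment over 15184 genes, 3 libraries each). *Atf6* had the largest, at 1.07 (adjusted p = 1.23e-09), and *Ern1* (0.27), *Hspa5* (0.22), *Hyou1* (0.15), *Canx* (0.074) and *Pdia4* (0.069) were also higher in SAM2. *Pdia3* (-0.41), *Calr* (-0.29) and *Hsp90b1* (-0.18) were lower in SAM2. The share of all genes called in this comparison was 60.3%. The labels do not say which guide each line carries, so guide and line cannot be told apart.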

How the results depend on the processing

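Over both lines, 6 genes were called by limma, and 6 to 6 when each library was left out in turn. In SAM1 the range was 8 to 9, in SAM2 8 to 9, and in SAM2 against SAM1 7 to 9. Of 770 values recomputed under alternatives, 725 kept their direction and their side of the threshold, and none of the counts of genes called in either direction moved by more than 1.5 times. Counts by direction moved more, since quantile normalization took the lower calls from 6 to 3 over both lines (with 1 higher) and from 9 to 5 in SAM1 (with 3 higher), and scaling to totals took them from 6 to 4 and from 9 to 6. The reversed values came from 2 scalings and from leaving out single libraries. Quantile normalization reversed, over both lines, *Hsp90b1* (0.15), *Canx* (0.10), *Pdia3* (0.071) and *Ern1* (0.0024), in SAM1 *Pdia3* (0.30), *Hsp90b1* (0.20), *Calr* (0.12) and *Canx* (0.055), in SAM2 *Canx* (0.15), *Hsp90b1* (0.10) and *Hspa5* (0.029), and between the lines *Xbp1* (-0.037). Scaling to the total of listed genes reversed *Ern1* (0.095) and *Canx* (0.036) over both lines, *Pdia3* (0.11) and *Canx* (0.018) in SAM1, *Canx* (0.054) in SAM2 and *Xbp1* (-0.0099) between the lines. *Ern1* over both lines ranged from -0.065 to 0.029 as each library was left out, with 0.029 without empty vector replicate 1 and 0.020 without SAM1 replicate 2. Scaling to totals moved the median of all genes to 0.13 over both lines, 0.15 in SAM1 and 0.10 in SAM2, and the genes called higher and lower from 4076 and 4103 to 5344 and 2838, from 5667 and 5608 to 7232 and 4101, and from 5340 and 5359 to 6555 and 4131. Over both lines, *Hspa5* was not called with quantile normalization (-0.12, adjusted p = 0.316), *Calr* with either scaling (adjusted p = 0.984 and 0.0505), and *Hsp90b1* with scaling to totals (adjusted p = 0.129). The cause was not tested.

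Libraries of different groups share replicate numbers. For the same number, their deviations from the group means correlated with r between 0.0024 and 0.117 (mean 0.053 over 9 pairs). For different numbers, r lay between -0.122 and 0.046 (mean -0.027 over 18 pairs). Correlations this weak cannot decide whether a shared number pairs libraries. With the replicate number as a block, 6 genes were called over both lines, 9 in SAM1, 9 in SAM2 and 9 between the lines. *Ern1* in SAM2 (0.11) was then called (adjusted p = 0.0132), and no other call over the 10 genes changed.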
